A study of Mus musculus with 2 samples.

Results

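B cells in the crypt preparation were 82 of the 2335 cells that the authors kept, or 3.51% (exact Clopper-Pearson 95% interval 2.80 to 4.34%). They were chosen by raw counts of unique molecular identifiers (UMIs, each one captured mRNA molecule): at least 3 summed UMIs of Cd79a, Cd79b and Ms4a1, at most 2 summed UMIs of Cd3e, Cd3g and Gzma, and fewer than 10000 UMIs in all. Cd79a and Cd79b encode the signalling chains of the B cell antigen receptor and Ms4a1 encodes CD20. The levels of these genes are therefore a description of the choice, and so is every difference in expression below, since it comes from the same cells.

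The source was a ChgaCreER-tdTomato::Rosa26LSL-eYFP mouse given 5 injections of 1 mg tamoxifen, 1 a day. In such a mouse the Chga promoter drives tdTomato and a tamoxifen-dependent Cre in enteroendocrine cells, and Cre activity turns on yellow fluorescent protein (eYFP) in those cells and their descendants. Sorted eYFP+ cells and sorted bulk epithelium of the small intestinal crypts were stained with 4 hashtag antibodies, which mark where a cell came from, and were captured as 1 droplet-based 3′ RNA library with 1 hashtag library. Which hashtag marked which sort is not stated in the sources used here. The labels name intestinal epithelium as the cell type, and give the same alleles and tamoxifen treatment for every cell, although Y-linked transcripts differed between the hashtags (values below).

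B cells recognise antigen through a surface antibody, made of heavy and light chains, that signals through Cd79a and Cd79b. Mature naive B cells carry this antibody as IgM and IgD and circulate through lymphoid tissue. In the gut wall they gather in Peyer's patches and isolated lymphoid follicles, where activated B cells form germinal centres, mutate their antibody genes and switch to other classes, IgA above all, before they become plasma cells.

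The B cells were set against all 2253 other cells, and against 2 smaller groups of cells within them. The first was 42 T cell-marker cells, with at least 3 summed UMIs of Cd3e, Cd3g and Gzma, at most 2 of the B cell genes and fewer than 10000 UMIs. The second was the 471 remaining cells under 10000 UMIs, called the other shallow cells here. The B cells held 237436 UMIs, the T cell-marker cells 126162, the other shallow cells 2299588 and all other cells 51000814. A B cell had 1036 to 9989 UMIs with a median of 2576, against medians of 3096 in T cell-marker cells, 4434 in other shallow cells and 19616 in all other cells. Mitochondrial transcripts took 1.31 to 12.1% of a B cell's UMIs with a median of 4.69%, against a median of 7.09% in all other cells. Levels are given as UMIs summed over a group's cells per 1000000 of that group's UMIs (CPM), with exact 95% Poisson intervals. All intervals cover counting error only, because 1 library gives no replicates and no test.

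The choice left few cells near its limits. Of the 2335 cells, 88 had at least 3 summed B cell UMIs, none of them with more than 2 T cell UMIs, and 6 of the 88 were dropped for having 10000 UMIs or more. Just inside, 1 member had 3 B cell UMIs among 1302 UMIs, 5 members had 3 or 4, and the other 77 had at least 5, with a median over all members of 10.5 and a maximum of 32. Just outside, no cell had exactly 2 B cell UMIs while meeting the other limits, and the 2 shallow cells with 2 had 46 and 175 T cell UMIs. Among the 6 deep cells left out, 1 had 14127 UMIs with 72 B cell UMIs, and 1 had 11034 UMIs with 3519 of Igkc, 1062 of Igha and 293 of Jchain, genes of the kappa light chain, the IgA heavy chain and the chain that joins secreted IgA. Another had 24307 UMIs with 8 B cell UMIs, and 3 cells of 18108 to 46306 UMIs had 3 each. The deepest members had 9989 and 8356 UMIs.

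**Figure D1:**
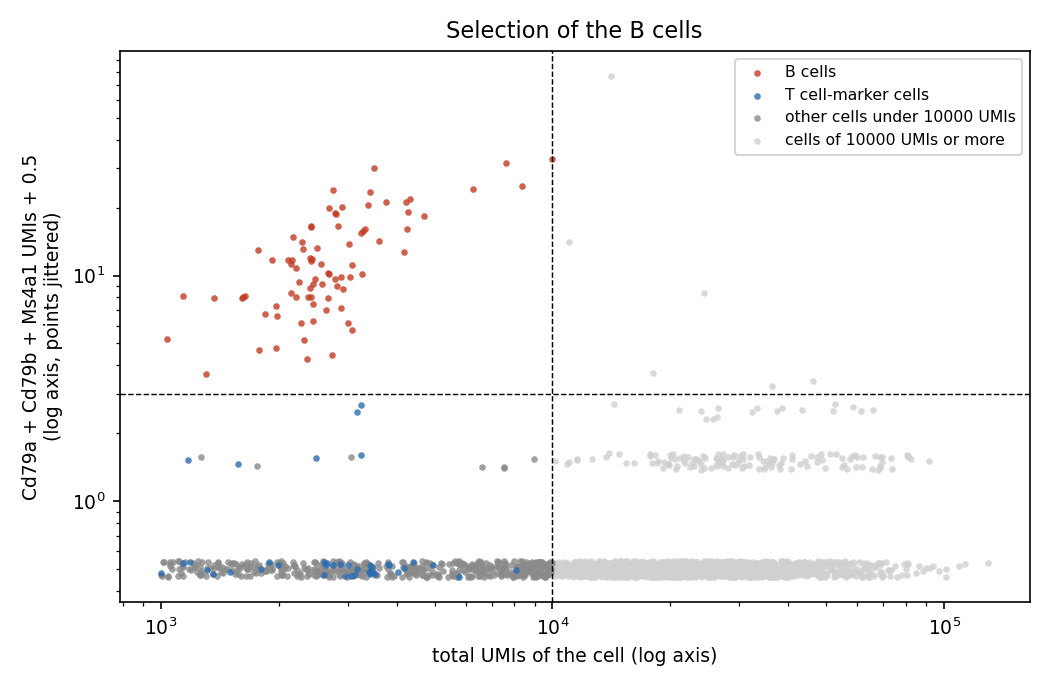
Total UMIs of each cell (x, log axis) against its summed Cd79a, Cd79b and Ms4a1 UMIs plus 0.5 (y, log axis, points jittered), with dashed lines at 10000 UMIs and 3 B cell UMIs. The 82 B cells lie at the upper left, apart from the T cell-marker cells and the other cells under 10000 UMIs, which have at most 2.

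The remaining defining genes, which the choice did not read, were found in the same cells. Ebf1, a transcription factor that sets B cell fate, was found in 76 of 82 B cells at 0 to 11 UMIs (median 3), or 1162 CPM (1029 to 1308), against 0.490 CPM in all other cells. Mef2c, a transcription factor of B cell growth after receptor stimulation, was found in 78 at 0 to 11 UMIs (median 3), or 1133 CPM (1002 to 1277), against 0.451 CPM. Ighm, the heavy chain of IgM, was found in 67 at 0 to 13 UMIs (median 3), or 1066 CPM (938 to 1205), against 1.22 CPM. The T cell-marker cells had no UMI of Ebf1 or Mef2c and 11 of Ighm (87.2 CPM). Pax5, the factor that keeps B cell identity, was found in 45 B cells (270 CPM), with no UMI in T cell-marker cells. The genes of the choice stood at 2359 CPM for Cd79a, 1023 for Cd79b and 788 for Ms4a1 in B cells, against 1.39, 3.59 and 0.510 CPM in all other cells.

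Across the transcriptome, a gene counted as higher or lower when its log2 ratio of CPM, with 10 CPM added to both groups, was at least 2 in size (4-fold) and the intervals were apart. Genes whose mean CPM over both groups was at least 50 entered, without the 6 genes of the choice. Against all other cells 265 of 2994 genes were higher in B cells (8.85%) and 224 lower (7.48%), a split of 123 and 67 with 50 CPM added in place of 10. Against T cell-marker cells 118 of 3112 were higher (3.79%) and 168 lower (5.40%), and against other shallow cells 235 of 3189 were higher (7.37%) and 302 lower (9.47%). The median log2 ratio of all these genes was -0.11, -0.18 and -0.16 against all other, T cell-marker and other shallow cells. A gene with low counts elsewhere could enter only through the B cells, so the counts for the B cell lists below describe the cells and support nothing further.

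Most B cells carried other hashtags than most of the cells they were set against, so these comparisons also set hashtags against each other. Tags 1 and 2 were summed, as were tags 3 and 4. A cell was given to the pair with the larger sum if the ratio of the sums reached 3. The sources used here do not state this pairing, so a pair may pool cells of different origin, and values of single tags are not given. The comparisons were repeated among cells of tags 3 and 4 alone, a choice made after the data were seen. There, 75 B cells were set against 336 other cells, of which 37 were T cell-marker cells and 50 other shallow cells. Against all other cells 271 of 2948 genes were higher (9.19%) and 190 lower (6.45%), including 257 of the 265 and 174 of the 224 called over all tags. Against T cell-marker cells 121 of 3116 were higher (3.88%) and 166 lower (5.33%), including 114 of the 118 and 151 of the 168. Against other shallow cells 206 of 3135 were higher (6.57%) and 223 lower (7.11%), including 177 of the 235 and 142 of the 302. The antigen receptor, transcription factor, naive and MHC class II lists had as many genes higher than in all other cells as over all tags (17, 12, 11 and 12), whereas the enteroendocrine list had none lower. Among the named genes, Cd52 had a log2 ratio to all other cells of 5.82 there, Ighm 6.06 and Ptprc 4.69.

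The highest ratio to all other cells belonged to Cd52, a surface glycoprotein of lymphocytes, at 2106 CPM in B cells and 5.47 CPM in all other cells (log2 ratio 7.10). After Ebf1, Mef2c and Ighm came Ly6d, a surface marker of B lineage commitment, at 846 against 0.549 CPM (6.34), and Cd37, a tetraspanin of mature B cells, at 868 against 0.922 CPM (6.33). Then followed Ighd, Coro1a, Srgn, Arhgdib, Iglc2, Ptprc, Bank1, Cxcr4, Igkc, Rac2, Msn, Ptprcap, Pou2f2, Fcmr, Gpr183, Iglc3, Cd83, H2-DMb2 and Satb1, with log2 ratios of 6.19 down to 5.31. Several of these are genes of leukocytes at large: of 17 listed general leukocyte genes 15 entered and 14 were higher in B cells than in all other cells, with a median log2 ratio of 4.57. Against T cell-marker cells 16 entered and none was called, with a median of -0.27. Ptprc, the CD45 phosphatase, stood at 834 CPM in B cells and 1268 CPM in T cell-marker cells, and Rac2, a GTPase of blood cells, at 619 and 737 CPM.

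Antigen receptor and signalling genes made up the largest B cell list. Of 24 listed genes 19 entered and 17 were higher in B cells than in all other cells, with a median log2 ratio of 4.31, and against T cell-marker cells 17 of the 20 that entered were higher. Igkc, the kappa light chain, was the most abundant, at 0 to 49 UMIs per B cell (median 11.5). It stood at 4843 CPM (4567 to 5132) in B cells, 7.93 CPM in T cell-marker cells, 16.5 CPM in other shallow cells and 85.0 CPM in all other cells. Of the 4333 Igkc UMIs in all other cells, 3519 and 601 lay in 2 deep cells with Igha and Jchain. The log2 ratio of Igkc to all other cells was 5.68, and 8.53 without these 2 cells and the deep cell of 14127 UMIs. Bank1, a scaffold of receptor signalling, stood at 564 CPM in B cells and 0.137 CPM in all other cells. Fcmr, the Fc receptor for IgM, stood at 442 against 0.137 CPM, and Vpreb3, a chaperone of the B cell receptor, at 417 against 2.08 CPM. The kinases and adaptors downstream were rarer: Syk at 223 CPM, Lyn at 206, Blnk at 143, Blk at 92.7, Btk at 84.2 and Plcg2 at 67.4 CPM, each found in 14 to 40 B cells. Blnk, the adaptor that links Syk to its targets, was not called against all other cells, which had 46.3 CPM (log2 ratio 1.44). Cd81, a widely expressed tetraspanin, stood lower in B cells, at 131 CPM against 354 CPM (-1.37, not called).

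B lineage transcription factors numbered 19, of which 17 entered and 12 were higher in B cells than in all other cells, with a median log2 ratio of 3.74. After Ebf1 and Mef2c the next was Pou2f2, an octamer-binding factor of B cells, at 472 CPM (388 to 568) against 0.745 CPM (5.49). Its co-activator Pou2af1 stood at 152 against 0.686 CPM, and Spib, an Ets factor of B and some epithelial cells, at 160 against 1.16 CPM. Foxp1, Irf8, Tcf4, Tcf3 and Id3 entered and were not called, with log2 ratios of 1.85, 1.96, 1.80, 0.20 and -1.51, and each of them stood at 31.6 CPM or more in all other cells. Against T cell-marker cells 11 of 16 were higher. The lymphoid factors Ikzf1, Ikzf3 and Ets1 stood at 126, 147 and 505 CPM in B cells and 135, 214 and 468 CPM in T cell-marker cells, none of them called.

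Genes of antigen presentation by MHC class II were abundant, and 4 of them were found in every B cell. Cd74, the invariant chain that guides class II molecules, was found in all 82 at 17 to 73 UMIs (median 39.5). It stood at 14143 CPM (13668 to 14629) in B cells, 111 CPM in T cell-marker cells, 713 CPM in other shallow cells and 757 CPM in all other cells. The peptide-presenting chains H2-Aa, H2-Ab1 and H2-Eb1 were also found in all 82, at 3635, 3121 and 3399 CPM in B cells, against 112, 188 and 149 CPM in all other cells. Of 14 listed genes 13 entered, and 12 were higher in B cells than in all other cells (median log2 ratio 4.21), with H2-DMb1 the exception at 126 against 29.3 CPM (1.79). Against T cell-marker cells all 13 that entered were higher (median 4.95). H2-Oa and H2-Ob, the chains of a peptide-loading regulator typical of B cells, stood at 282 and 379 CPM in B cells against 0.294 and 0.216 CPM in all other cells. Ciita, the co-activator that switches class II genes on, stood at 299 against 11.6 CPM. Reads of H2-DMb1 and H2-DMb2, which are near copies, may have been split between them. Cd83 stood at 606 against 4.72 CPM, Cd86, a ligand that co-stimulates T cells, at 147 against 0.372 CPM, and Cd40 at 50.5 against 0.137 CPM.

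Class II promoters share a conserved module that ends in an inverted CCAAT element, the Y box, bound by the factor NF-Y. Because these genes were high together, the 250 bases before each transcription start were searched for the Y box core TGATTGG and its reverse complement CCAATCA, with sequences from RefSeq for build GRCm38.p6. Of the 14 listed genes 8 had a window in that table. The core was found in 6 of the 8 (H2-Aa, H2-Eb1, H2-Ob, H2-Oa, H2-DMb1 and H2-DMb2) and in 7.23% of all 32851 windows. In all 6 it read TGATTGG on the gene's strand and began 45 to 92 bases before the start. Of the 265 genes higher in B cells than in all other cells 191 had a window, and 17 of these (8.90%) held the core. H2-Aa, H2-Eb1, H2-Ob, H2-Oa and H2-DMb2 are among these 17. So are 3 H2 genes that were not on the list: H2-Eb2, where the core began 102 bases before the start, H2-Q6 and H2-Q7. Another motif, the octamer ATGCAAAT or ATTTGCAT that Pou2f2 binds, was found in 6 of those 191 genes (3.14%) and in 1.60% of all windows. The 6 were Prkcb, Ypel3, Sesn3, Srgn, Vpreb3 and Ccr6. A gene was counted if any of its windows held the motif, whereas the shares of all windows count each window singly. The 2 kinds of share are therefore not like for like. These matches describe letters only, and no binding was measured. The core began 50, 61 and 59 bases before the start in H2-Aa, H2-Eb1 and H2-Ob, and 92 bases before it in H2-DMb2. In the sequences below, capitals mark the Y box core in these 4 class II genes and the octamer in Vpreb3. The sequences are the 250 bases before the start, 5′ to 3′ on the gene's strand. They lie at chr17:34287824-34288073 (minus strand), chr17:34305617-34305866 (plus), chr17:34238655-34238904 (plus), chr17:34144999-34145248 (plus) and chr10:75948050-75948299 (plus).
H2-Aa: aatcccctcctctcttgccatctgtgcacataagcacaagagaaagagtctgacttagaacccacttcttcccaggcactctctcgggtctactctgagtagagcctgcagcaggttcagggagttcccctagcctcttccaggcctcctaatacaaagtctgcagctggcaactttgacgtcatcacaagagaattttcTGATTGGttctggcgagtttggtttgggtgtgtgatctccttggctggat
H2-Eb1: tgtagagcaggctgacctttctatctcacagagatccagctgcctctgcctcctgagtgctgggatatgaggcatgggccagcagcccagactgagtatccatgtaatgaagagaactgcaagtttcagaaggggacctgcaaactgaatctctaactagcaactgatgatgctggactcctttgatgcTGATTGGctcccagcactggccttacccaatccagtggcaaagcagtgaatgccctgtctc
H2-Ob: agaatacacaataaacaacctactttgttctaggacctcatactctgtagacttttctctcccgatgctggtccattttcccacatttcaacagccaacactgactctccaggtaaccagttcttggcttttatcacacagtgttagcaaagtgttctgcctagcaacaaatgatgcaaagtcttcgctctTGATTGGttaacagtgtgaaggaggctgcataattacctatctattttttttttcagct
H2-DMb2: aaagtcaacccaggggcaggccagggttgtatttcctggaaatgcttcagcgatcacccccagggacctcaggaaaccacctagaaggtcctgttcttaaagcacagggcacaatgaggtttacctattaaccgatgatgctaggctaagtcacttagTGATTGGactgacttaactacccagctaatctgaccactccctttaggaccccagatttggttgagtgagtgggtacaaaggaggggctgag
Vpreb3: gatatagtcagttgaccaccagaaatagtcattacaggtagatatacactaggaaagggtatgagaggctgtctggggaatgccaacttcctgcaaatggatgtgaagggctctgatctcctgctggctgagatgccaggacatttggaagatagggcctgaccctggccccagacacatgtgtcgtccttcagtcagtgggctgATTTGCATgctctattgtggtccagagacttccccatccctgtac

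**Figure D2:**
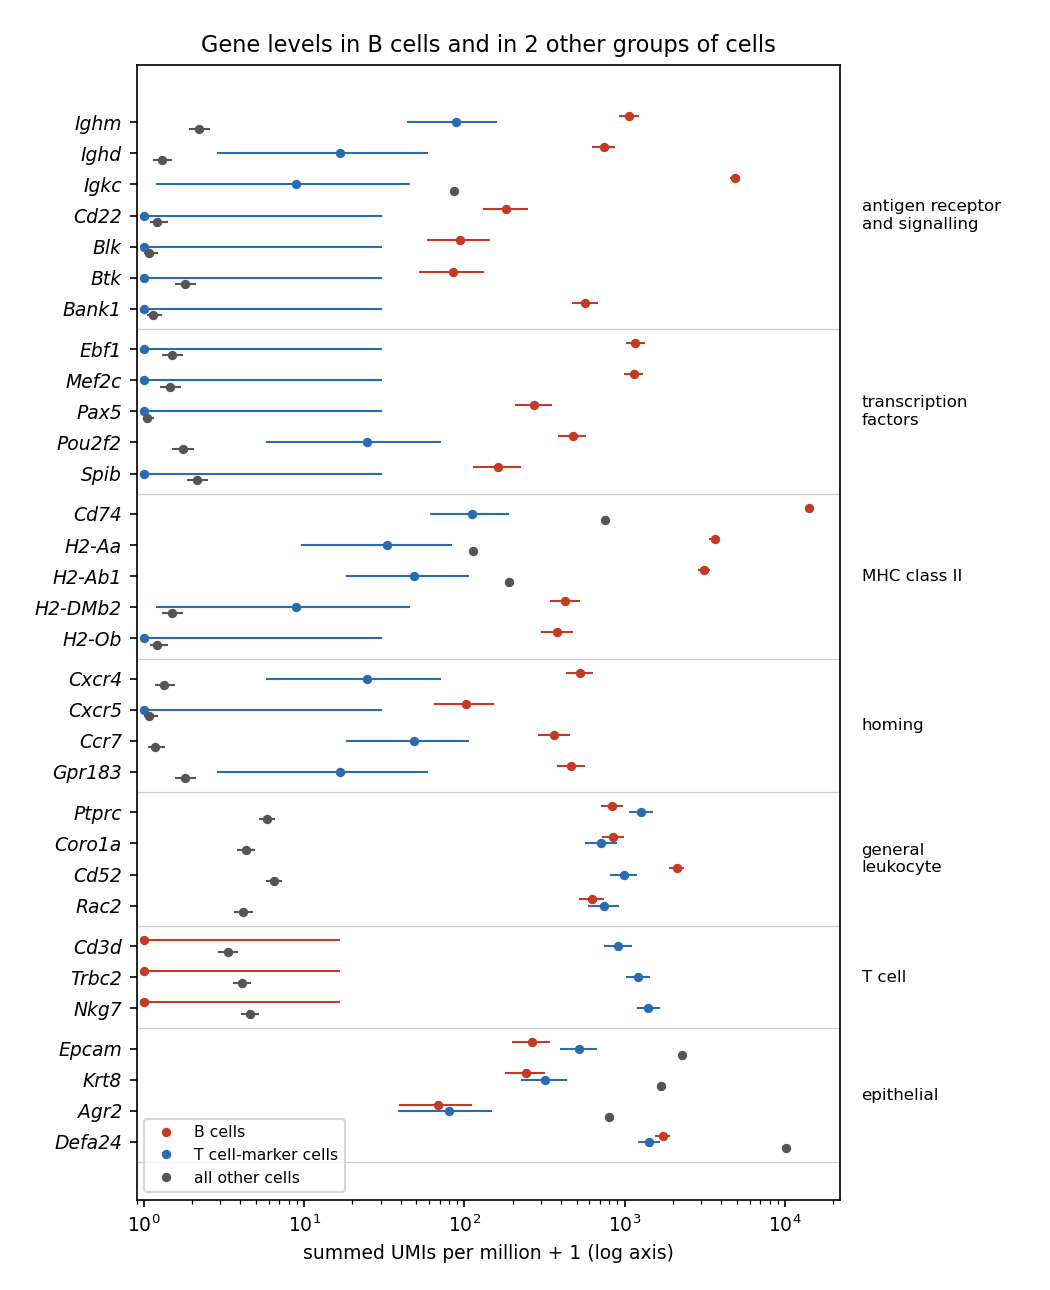
Summed UMIs in CPM, plus 1 (x, log axis) of genes from 7 lists in B cells, T cell-marker cells and all other cells, with exact 95% Poisson intervals as lines. The 4 general leukocyte genes are high in both B cells and T cell-marker cells, while Ebf1, Mef2c and Pax5 have no UMI in T cell-marker cells, and Cd74 stands at 14143 CPM in B cells and 111 CPM in T cell-marker cells.

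Receptors that guide B cells in lymphoid tissue were present, and the chemokine receptors Ccr9 and Ccr10 had no UMI. Cxcr4, the receptor for Cxcl12, stood at 522 CPM (434 to 623) in B cells and 0.333 CPM in all other cells, and was found in 57 of 82. Gpr183, a guidance receptor for oxysterols at the follicle edge, stood at 463 against 0.804 CPM, and Ccr7, which draws lymphocytes to T cell zones, at 362 against 0.176 CPM. Cxcr5, the receptor for the follicle chemokine Cxcl13, stood at 101 CPM and was found in 22 B cells. Ccr6 stood at 122 CPM and S1pr1, the exit receptor, at 156 CPM. Ccr6 had no UMI in all other cells and was found in 21 B cells. Ccr9 and Ccr10, receptors of cells that home to the gut lining, had 0 UMIs in B cells, with an exact upper limit of 15.5 CPM for each, while Ccr9 stood at 158 CPM in T cell-marker cells. Itga4 and Itgb7, which pair into an integrin for gut vessels, stood at 190 and 50.5 CPM in B cells, against 151 and 135 CPM in T cell-marker cells, neither called. Of 19 listed genes 10 entered against all other cells and 9 were higher in B cells. Itgb1 was the tenth, at 33.7 against 132 CPM (-1.70). Selplg, the P-selectin ligand, stood at 16.9 CPM in B cells against 325 CPM in T cell-marker cells (-3.64).

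Of 18 listed receptors for BAFF, cytokines and Toll-like ligands with their signalling genes, 11 entered against all other cells and 9 were higher in B cells (median log2 ratio 4.48). Against T cell-marker cells 13 entered, and only 4 were higher and 2 lower (median 0.70). Tnfrsf13c, the BAFF receptor on which mature B cells depend, stood at 274 CPM (211 to 349) in B cells and 0.157 CPM in all other cells, and its relative Tnfrsf13b (TACI) at 114 against 0.118 CPM. Ly86 and Cd180, partners in a Toll-like receptor complex of B cells, stood at 337 and 110 CPM in B cells, with no UMI in T cell-marker cells. Tlr7 and Tlr9 had 1 UMI each. Il2rg, the common cytokine receptor chain, stood at 227 CPM in B cells and 174 CPM in T cell-marker cells, and Il21r at 135 and 262 CPM. Ifngr1, a chain of the interferon-gamma receptor, and Tnfaip3, a brake on NF-kB signalling, stood lower in B cells, at 67.4 and 37.9 CPM, against 452 and 380 CPM in T cell-marker cells.

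Genes of mature naive B cells were high in the B cells as a group. Of 13 listed, 11 entered and all 11 were higher in B cells than in all other cells, with a median log2 ratio of 3.71. Ighd, the heavy chain of IgD, had 0 to 9 UMIs per B cell (median 2), or 741 CPM (636 to 859), against 0.294 CPM in all other cells. Fcer2a (CD23) and Cr2 (CD21), surface proteins of follicular B cells, stood at 177 and 147 CPM, against 0.157 and 0.255 CPM. Btg1, an anti-proliferative gene, stood at 1836 CPM against 175 CPM in all other cells and 1284 CPM in T cell-marker cells. After each cell was thinned to 1000 UMIs, 56.1% of the 82 B cells had an Ighd UMI (44.7 to 67.0%). The same share was 2.38% of 42 T cell-marker cells (0.0603 to 12.6%), 0.212% of 471 other shallow cells and 0.0888% of all 2253 other cells, all deep enough to keep. Without thinning, 78.0% of B cells had an Ighd UMI, against 4.76%, 0.212% and 0.311% in those groups of cells.

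Genes listed for other B cell states were mixed. Of 10 marginal zone and B1 cell genes 3 entered and Mzb1, a chaperone of antibody assembly also listed for plasma cells, was the only one higher, at 358 CPM in B cells against 1.71 CPM. Plac8, which epithelium also expresses, stood at 531 against 1197 CPM. Cd9 had 7 UMIs, Dtx1 8, Bhlhe41 3, S1pr3 1 and Cd5 1 in all B cells together. Of 16 plasma cell genes 6 entered and 4 were higher (Mzb1, Irf4, Igha and Jchain), while 6 had 0 UMIs: Prdm1, the factor that drives plasma cell fate, Tnfrsf17, Fkbp11, Ighg1, Ighg2c and Ighg3. The Igha and Jchain calls rested on the 6 germinal centre-like cells described below, which held 36 of 41 Igha and 25 of 26 Jchain UMIs. Without them Igha stood at 24.8 CPM (8.05 to 57.9) against 27.9 CPM in all other cells and Jchain at 4.96 against 8.51 CPM, neither called, while Mzb1 at 258 CPM and Irf4 at 198 CPM were still higher. The deep Igkc-rich cells described above stayed among all other cells here, with 1062 and 277 Igha UMIs and 293 and 107 Jchain UMIs. In tags 3 and 4 alone, all other cells stood at 3.60 CPM for Igha and 2.12 CPM for Jchain. Of 15 cell cycle genes 9 entered, and 6 stood lower in B cells with intervals apart. Only Ube2c was called, at 59.0 CPM against 268 CPM. The list summed to 817 CPM in B cells, 387 CPM in B cells without the 6 germinal centre-like cells, and 1683 CPM in all other cells. Immediate early and activation genes split: of 16, Nr4a1, Dusp2, Cd69 and Cd83 were higher in B cells, and Jun was lower, at 240 against 1076 CPM.

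Antibody classes were read in each cell. Of the 82 B cells 59 had UMIs of both Ighm and Ighd, 8 of Ighm alone, 5 of Ighd alone and 10 of neither. For light chains, a cell was assigned when it had at least 2 UMIs and one class was at least 3 times the other. By that measure 60 cells were kappa, 6 lambda and 16 unassigned, so kappa made 90.9% of the 66 assigned (81.3 to 96.6%). The kappa and lambda UMIs did not exclude each other: 45 of the 60 kappa cells had at least 1 lambda UMI, up to 15. Of the 6 lambda cells, 5 had no Igkc UMI, and 4 of the 6 had 9 or more of Iglc1. Iglc1 had 88 UMIs over 17 B cells, 51 of them in the 6 lambda cells, whereas Iglc2 was found in 52 B cells and Iglc3 in 42. The 3 lambda constant genes are near copies, and how reads were split between them is uncertain. Variable genes gave 26 UMIs of 23 genes out of 348 listed, in 21 B cells, and no variable gene was found in more than 1 cell, although these too are near copies.

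**Figure D3:**
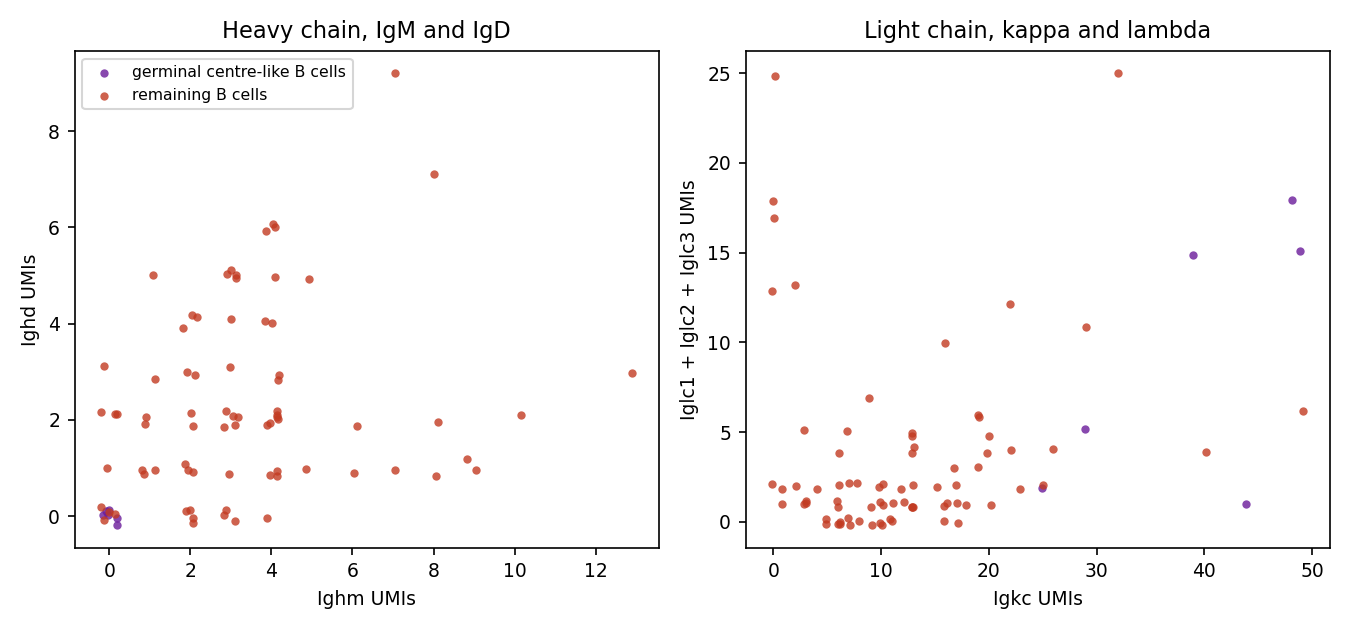
UMIs of Ighd against Ighm (left) and of summed Iglc1, Iglc2 and Iglc3 against Igkc (right), 1 point per B cell with jitter, germinal centre-like cells in purple and remaining B cells in red. The 6 germinal centre-like cells sit at 0 for both Ighm and Ighd and at 25 to 49 for Igkc.

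A small subset carried germinal centre genes. Of the 82 B cells, 6 had UMIs of 5 to 10 of the 12 listed germinal centre genes, whereas 49 had none, 24 had 1, 3 had 2 and no cell had 3 or 4. The limit of 5 was placed after these values were seen, so the values of the listed genes describe the split. These 6 cells had 9 to 29 UMIs of the list each, and no other B cell had more than 2. The list summed to 3326 CPM in the 6 germinal centre-like cells and 179 CPM in the remaining 76. Basp1 had 25 UMIs in the 6 cells and 0 in the 76, and was at least 47.0-fold higher against a floor of 3 UMIs over the 76 cells. Rgs13, a regulator of chemokine receptor signalling in germinal centre B cells, had 16 and 0 UMIs. S1pr2, a receptor that confines cells to the germinal centre, had 9 and 0, with 0 to 3 UMIs per cell in the 6, and Mef2b 16 and 4. Bcl6, the factor germinal centre fate depends on, had 2 UMIs in the 6 cells and 3 in the 76. The 6 cells were deeper, with 3415 to 9989 UMIs and a median of 5274, against a median of 2466 in the remaining B cells.

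The same 6 cells differed in genes outside that list. All 6 had 0 UMIs of Ighm and of Ighd, against 253 and 176 UMIs in the remaining 76, so that Ighm was at least 15.0-fold lower and Ighd at least 10.4-fold lower. All 6 had 2 to 12 UMIs of Igha (36 in all), against 5 in the 76, where 3 cells had any. Ighg2b, a constant region of IgG, had 11 UMIs in 2 of the 6 cells and 0 in the 76. Jchain had 25 UMIs in 5 of the 6 cells and 1 in the 76. The 15 cell cycle genes summed to 3242 CPM in the 6 cells and 387 CPM in the 76, a ratio of 8.38 (6.24 to 11.3). One of the 6 cells held 60 of their 116 cell cycle UMIs, and without it the list stood at 1899 CPM, a ratio of 4.91 (3.42 to 7.01). Individually the 6 had 1 to 60 cell cycle UMIs, and no remaining B cell had more than 4. Mki67, the Ki-67 proliferation antigen, was found in all 6 at 1 to 12 UMIs.

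Naive B cell genes showed the opposite order, with 587 CPM for the list in the 6 germinal centre-like cells and 5162 CPM in the 76, a ratio of 0.114 (0.0701 to 0.175). Of that list, Ccr7, Klf2 and Fcer2a had no UMI in the 6, against 86, 70 and 42 UMIs in the 76. Outside that list, Ly6d, Gpr183 and Nr4a1 also had none in the 6, against 201, 110 and 104 UMIs in the 76. The MHC class II list stood at 18223 CPM in the 6 and 29089 CPM in the 76, a ratio of 0.626 (0.577 to 0.679). Defining genes differed in both directions: Cd79a stood at 1230 and 2559 CPM, with intervals apart, while Cd79b stood at 1593 and 922 CPM and Ms4a1 at 1230 and 709 CPM, also apart. Intervals overlapped for Ebf1, at 755 and 1235 CPM, and for Pax5, at 224 and 278 CPM. Epithelial genes took a median of 0.271% of a cell's UMIs in the 6 and 0.518% in the 76, and their part in these differences was not tested.

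**Figure D4:**
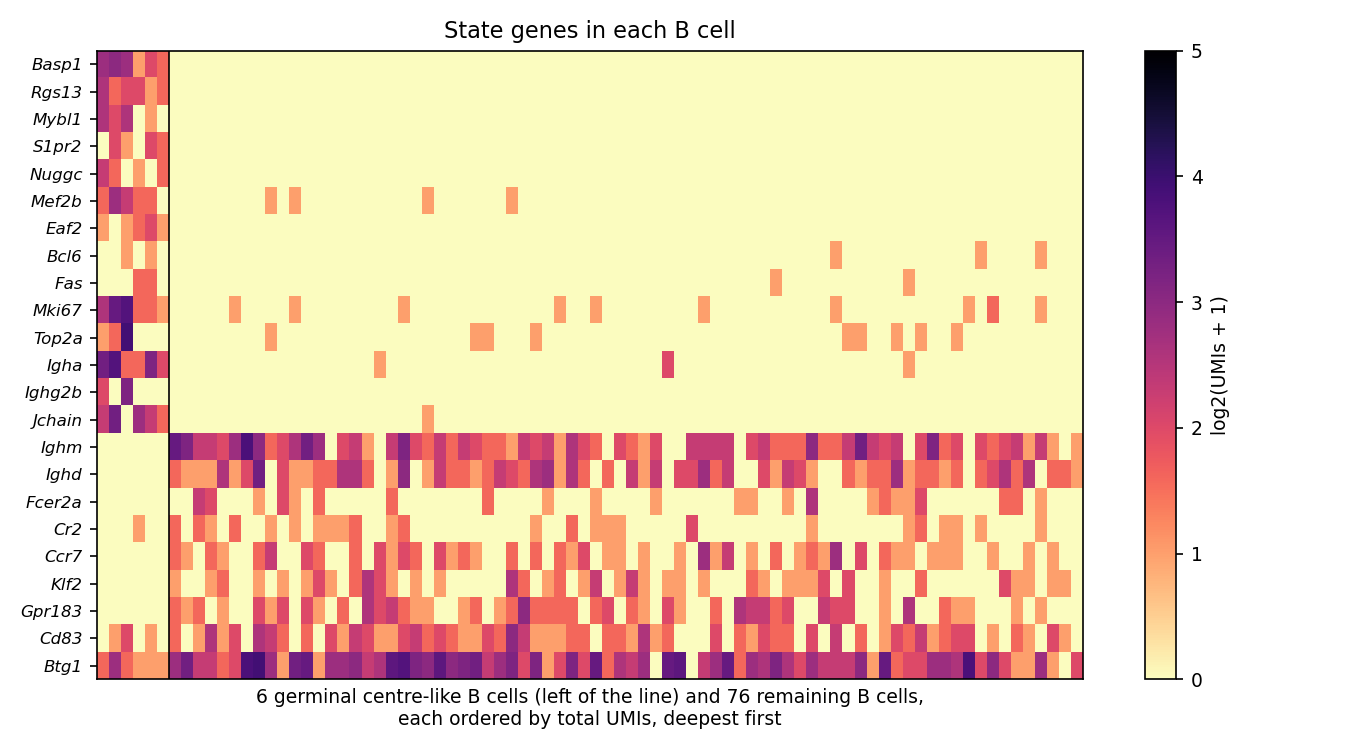
UMIs, as log2(UMIs + 1) in colour, of state genes (rows) in each of the 82 B cells (columns), with the 6 germinal centre-like cells left of the line and the remaining 76 to its right, deepest first. Basp1, Rgs13, Mki67 and Igha have UMIs in all 6 left columns, where Ighm, Ighd, Ccr7, Klf2 and Gpr183 are at 0 UMIs, while Bcl6, Fas and Ighg2b have UMIs in 2 of the 6.

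Besides the 6, 4 B cells also had neither Ighm nor Ighd UMIs. They had 1847 to 2999 UMIs, 0 or 1 germinal centre gene and 0 to 2 cell cycle UMIs, and 2 of them had Igha UMIs (1 and 3). The deep cell left out for its 14127 UMIs had 11 of the 12 germinal centre genes, 48 cell cycle UMIs, 9 of Igha and 32 of Ighm, with none of Ighd. It would have been the seventh by the same count of genes.

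Markers of other cell types were looked for in the B cells. The 22 T cell and cytotoxic genes summed to 14 UMIs, of which the choice itself limited Cd3e, Cd3g and Gzma, and 15 of the other 19 genes were at 0. Of the 14 UMIs 9 were of Lck, a kinase some B cells also express. The 16 myeloid and dendritic cell genes summed to 7 UMIs with 14 genes at 0, and 6 of the 7 UMIs lay in the germinal centre-like cells. The 11 stromal, endothelial and neural genes summed to 23 UMIs, every one of Pecam1, an adhesion molecule of endothelium and leukocytes. Against T cell-marker cells, the lowest genes in B cells were Ccl5, at 4.21 against 13483 CPM, and Gzmb, Cd7, Nkg7, Trbc2, Fcer1g, Cd8a, Cd3d, Ikzf2, Ctsw, Trbc1 and Fyb, each with 0 UMIs in B cells. Gzmb, a granzyme, was at least 151-fold lower in B cells and Cd3d, a chain of the T cell receptor complex, at least 72.1-fold lower, against a floor of 3 UMIs over the 82 cells. Apoe, an apolipoprotein, had 119 UMIs in 36 B cells (501 CPM) and none in T cell-marker cells, and stood at 6.74 CPM in all other cells.

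Epithelial transcripts were present in every B cell at a low level. The 25 epithelial genes summed to 4852 CPM in B cells (4576 to 5140), 4970 CPM in T cell-marker cells (4588 to 5374), 22492 CPM in other shallow cells and 33586 CPM in all other cells. Of the 25 genes 24 entered against all other cells and 23 were lower in B cells, whereas against T cell-marker cells 18 entered and none was called. Defa24, an antimicrobial peptide of Paneth cells, had 408 UMIs in 80 of 82 B cells, or 1718 CPM, against 1419 CPM in T cell-marker cells and 10142 CPM in all other cells. The last value does not describe a typical cell, since the highest Defa24 count among all other cells was 36956 UMIs and the median 6. With cells thinned as for Ighd, Defa24 was found in 81.7% of B cells and 66.7% of T cell-marker cells. The same share was 71.1% of other shallow cells and 38.7% of all other cells. Chgb, a granule protein of enteroendocrine cells, was found in 69.5% of B cells at 425 CPM, against 420 CPM in T cell-marker cells, 31710 CPM in other shallow cells and 6512 CPM in all other cells. It had the lowest log2 ratio to all other cells, -3.90, followed by Fcgbp, Onecut2, Reg4, Rbp2, Tm4sf5, Calml4, Ccl25, Agr2, Gip, Lypd8 and Tspan8, from -3.88 to -3.35. The Chgb ratio describes summed UMIs and not a typical cell: among all other cells the highest count was 4720 and the median 3. With cells thinned as for Ighd, Chgb was found in 31.71% of B cells, 31.69% of all other cells and 59.0% of other shallow cells. The 12 enteroendocrine genes took a median of 0.1025% of a B cell's UMIs, against 0.0317% in all other cells and 0.244% in other shallow cells. Against other shallow cells Chgb (-6.19), Reg4, Chga, Gip, Cpe, Tph1, Gstt1, Cck, Map1b, Afp, Ttr and Tspan1 were the lowest, and all 12 enteroendocrine genes were lower in B cells. Among cells of tags 3 and 4 alone, the 25 epithelial genes stood at 4861 CPM in B cells and 34016 CPM in all other cells, with 21 lower. The 12 enteroendocrine genes stood at 1069 CPM in B cells there, against 10950 CPM in other shallow cells, with 5 lower, and 1657 CPM in all other cells, with none lower. In those tags the log2 ratio of Chgb to all other cells was -1.22 and that of Reg4 -1.06, neither called, and Gip turned to 1.48, not called. Gip and Afp also turned against other shallow cells there, to 0.78 and 1.04, neither called. YFP had 2 UMIs and tdTomato 0 in B cells, against 66.8 and 48.4 CPM in all other cells, and in tags 3 and 4 YFP stood at 9.17 CPM in B cells and 4.77 CPM in all other cells.

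The hashtags, which the choice did not read, placed most B cells together. By the measure above 75 B cells were in tags 3 and 4, 4 in tags 1 and 2, and 3 unassigned. The measure left 934 of all 2253 other cells unassigned, 152 of 471 other shallow cells and 0 of 42 T cell-marker cells. Shares by tag pair are therefore of assigned cells only, and so leave out many more other cells than B cells. Of the 79 assigned B cells 94.9% were in tags 3 and 4 (87.5 to 98.6%), against 88.1% of 42 T cell-marker cells (74.4 to 96.0%), 15.7% of 319 other shallow cells (11.9 to 20.1%) and 25.5% of 1319 other cells (23.1 to 27.9%). Turned round, B cells made 18.2% of the 411 cells of tags 3 and 4 and 0.405% of the 987 cells of tags 1 and 2. They made 0.320% of the 937 unassigned cells. The 75 B cells had 302 to 1283 counts of tags 3 and 4 (median 731), against medians of 1170 in T cell-marker cells and 122 in other shallow cells of those tags. All 6 germinal centre-like cells were in tags 3 and 4. The 4 B cells of tags 1 and 2 had 905 to 10219 counts of that pair and 2364 to 3263 UMIs.

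**Figure D5:**
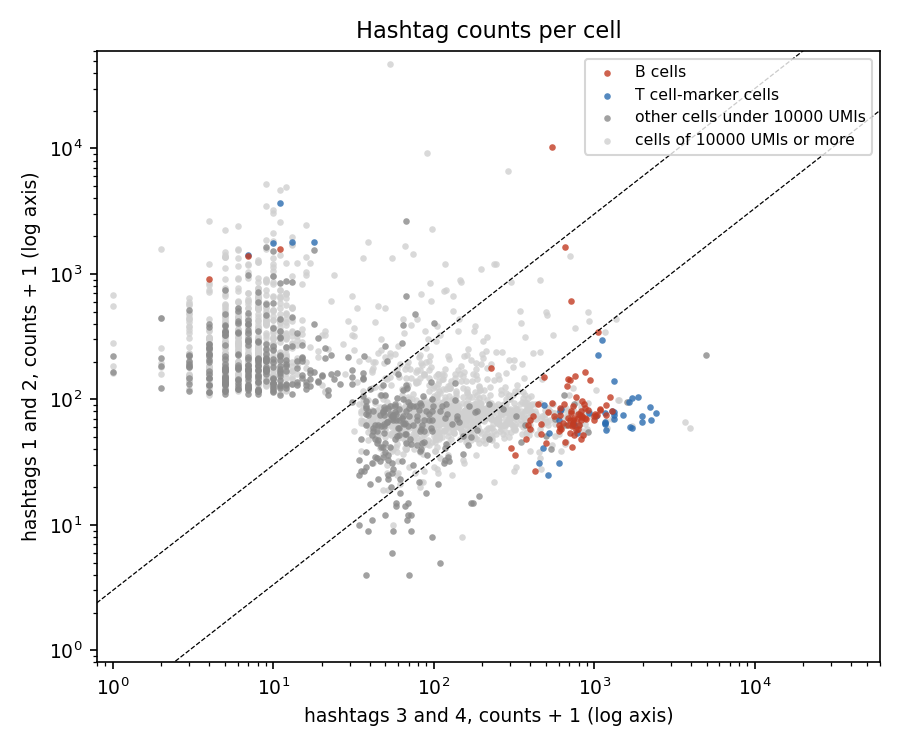
Counts plus 1 of hashtags 3 and 4 (x) against hashtags 1 and 2 (y) per cell, both on log axes, with dashed lines at 3-fold ratios. The 75 B cells of tags 3 and 4 form a cluster near that of the T cell-marker cells, and 4 B cells lie with tags 1 and 2.

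The Y-linked genes Ddx3y, Eif2s3y, Kdm5d and Uty had 0 UMIs in B cells, with an exact upper limit of 15.5 CPM, against 19.2 CPM in all other cells. Among all other cells those of tags 3 and 4 had 0.742 CPM and those of tags 1 and 2 had 44.2 CPM, although the labels speak of 1 mouse. In the 4 B cells of tags 1 and 2, with 10925 UMIs between them, 0 UMIs were found, and their count is too low to set beside 44.2 CPM. Xist, transcribed from the inactive X chromosome, was found in 68 of 82 B cells at 1116 CPM (986 to 1259). Among all other cells it stood at 1102 CPM (1081 to 1124) in tags 3 and 4. In tags 1 and 2 it stood at 686 CPM (674 to 697), beside the Y-linked 44.2 CPM. Its level was thus not particular to B cells, and the source of both signals in tags 1 and 2 was not tested.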

How the data were processed

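The measurements came from 1 gene expression library and 1 hashtag library of the same cells. The deposited raw counts are UMIs per gene and barcode. Cell Ranger and Seurat are named in the submitters' processing notes with the build GRCh38, although the gene IDs are those of mouse, and the sources used here do not say how reads were assigned. The authors kept 2335 of 11248 barcodes, with 31055 genes, and those values were checked to equal the matrix (0 entries differed). The lowest kept cell had 1002 UMIs. Every barcode of the kept cells was read in both libraries.

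From the deposited counts, UMIs were summed over cells and given per 1000000 (CPM), with 10 CPM added for log2 ratios. The level and call limits, light chain and hashtag measures are given with the results. Cells were thinned without replacement. No doublet caller was run, and cells of 10000 UMIs or more were outside the choice. With 1 library there is no test. Members and the 18 gene lists, which share some genes, were chosen with earlier results of these data known. Named genes were the 25 highest and 12 lowest ratios to all other cells and the 12 and 12 to each other group, where 20% or more of the cells in the higher group had the gene, plus list members and antibody genes. Genes of a few counts, and the groups by germinal centre genes, were named after their values were seen. Some listed genes are not reported here. Alternatives changed the cell limits, the pseudocount, the level filter, the weighting of cells and the hashtags compared. The calculations used Python 3.11.15 with numpy, scipy and pandas, and were tested on simulated data.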

Additional observations from a re-analysis of the deposited data

Results flagged for a closer look

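Among the 8913 barcodes that the authors left out, 14 met the same limits for B cells. They had 539 to 7686 UMIs with a median of 838, and 10 of them lay below 1002 UMIs, the lowest count of a kept cell. Ighm UMIs were found in 9 and Ighd UMIs in 5 of the 14. Of the 14, 2 had over 300 Igkc UMIs, 3 exceeded the highest mitochondrial share of a kept cell (12.5%), and 4 had fewer than 40 hashtag counts, the lowest of a kept cell. By the 3-fold measure 10 were in tags 3 and 4, among them the 4 with fewer than 40 hashtag counts and 6 with more, and 2 in tags 1 and 2.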

How the results depend on the processing

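The number of B cells ran between 77 and 88 over the other limits tried. The share in tags 3 and 4 ran between 91.3 and 96.0%, and the kappa share between 86.5 and 91.9%. The share with Ighd UMIs was 78.0% without thinning. The counts of genes 4-fold apart from all other, T cell-marker and other shallow cells (489, 286 and 537) were 190, 133 and 226 with 50 CPM added in place of 10, 120, 69 and 120 with a mean level of at least 200 CPM, and 892, 439 and 1033 with no filter on low levels. With 50 CPM added, 123 genes were higher and 67 lower than in all other cells, against 265 and 224. Of 972 recomputed log2 ratios of 85 named values, 185 moved outside the counting interval, 63 of them with 1 CPM and 68 with 50 CPM added and 33 among cells of tags 3 and 4 alone. Another 3 turned their sign, all in tags 3 and 4 alone: Gip to 1.48 against all other cells and to 0.78 against other shallow cells, and Afp to 1.04 against other shallow cells, and the cause was not tested. Some alternatives were chosen after seeing the data. They left out the germinal centre-like cells, the members over 5000 UMIs, or the deep antibody-rich cells among the other cells. Keeping tags 3 and 4 alone was also chosen so. With these, no total count of genes 4-fold apart moved by over 1.5 times. Counts within lists did move in tags 3 and 4 alone. There the enteroendocrine genes called lower went from 10 to 0 against all other cells, and from 12 to 5 against other shallow cells. No paired analysis was possible because there is 1 gene expression library. That library, the low depth of the B cells and the single preparation limit every value, and no spread between animals can be given.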
